A study of Caenorhabditis elegans with 24 samples.

Results

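The hairpins mir-228, mir-790 and mir-791 of Caenorhabditis elegans (cel-mir-228, cel-mir-790 and cel-mir-791 in the files) were followed through small RNA libraries of 6 alg-1 genotypes. All mature arms that the deposited count table lists under these precursors were taken, which gave 6 arms of 3 hairpins among 437 mature miRNA names of 253 hairpins. The rule names the precursors, which were picked with earlier results of these data known. The libraries came from whole animals carrying 1 of 4 alg-1 alleles modelled on human AGO1 changes of neurodevelopmental disorders, written here as F180del (allele ma447), G199S (ma443), V254I (zen25) and H751L (zen18), from animals with the null allele tm492, and from the wild type N2 (WT). Each genotype gave 2 libraries of small RNA from a precipitation of ALG-1 (IP) and 2 of total small RNA of the lysate, so 24 libraries in 12 groups. By its label, the null IP holds what is recovered without ALG-1, a background. All animals were fed E. coli HB101 and harvested after 45 h of feeding at 20 °C from a starved hatch. Nothing in the labels says that the libraries numbered 1 and 2 of a group are separate cultures, and the p-values below rest on the spread between them, which may be technical.

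A miRNA hairpin gives a duplex, from which an Argonaute such as ALG-1 usually keeps one strand as guide and loses the other, the passenger strand. The guide finds its targets mainly through the seed near its 5′ end, and the major arms of mir-228, mir-790 and mir-791 have related seeds of the group that also holds vertebrate miR-96, miR-182 and miR-183, which are known from sensory organs. In C. elegans the mir-228 promoter is used to mark glia, and mir-791 is known from carbon dioxide sensing neurons. ALG-2, a close relative of ALG-1, also holds miRNAs. These were whole animals, so fewer cells of a type and less RNA per cell cannot be told apart.

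In the WBcel235 annotation (Ensembl) the hairpin of mir-228 lies on chromosome IV at 5562025 to 5562122 on the plus strand. The hairpin of mir-790 follows on the same strand at 5566422 to 5566491, with 4299 bases between them. The hairpin of mir-791 lies on chromosome X at 5809349 to 5809433, also on the plus strand. None of the hairpins lies within a protein-coding gene. T12E12.6 lies 529 bases above mir-790, ari-2 lies 3205 bases below mir-228 and F13D11.3 lies 3427 bases below mir-791. On the other side hbl-1, a transcription factor gene of developmental timing, lies 12709 bases above mir-791. The annotation places the piRNA 21ur-1430 at 5566428 to 5566448 on the plus strand, within the 22 bases of miR-790-5p at 5566427 to 5566448. Reads of the piRNA and of miR-790-5p cannot be told apart in a table of counts per miRNA, and the part of the piRNA in the values of miR-790-5p was not tested.

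Levels are given in reads per 1000000 miRNA reads (RPM) and are shares of a library, not amounts. Libraries held between 3940626 and 13835895 miRNA reads, and a count of 0 allows up to 3 reads, or 0.217 to 0.761 RPM. The null IP stood apart, with reads for 153 miRNAs in library 1 and 232 in library 2, against 269 to 327 in the other IP libraries. No library was left out of the main fits. Reads of miRNAs do not measure the alg-1 transcript, so the genotypes were not checked through the gene itself. All 6 arms entered each of the fits, which tested 303 miRNAs in total RNA, 269 in the IP and 315 over both. In the IP miR-790-3p passed the filter on low counts through F180del and G199S, where it is high.

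The 3 hairpins differed by orders of magnitude in level. miR-228-5p ran between 47790 and 205860 RPM in the IP and between 17064 and 92939 RPM in total RNA. It ranked 1 among all miRNAs in both IP libraries of V254I, H751L and WT, and between 3 and 11 in the total libraries. miR-790-5p ran between 391 and 1233 RPM in the IP and between 326 and 2833 RPM in total RNA. miR-791-3p, the arm of the sensory neuron miRNA with more reads over the total libraries, ran between 53.9 and 112 RPM in the IP and between 3.19 and 34.5 RPM in total RNA. As a share of miR-228-5p, miR-790-5p was 0.572% to 1.35% in the IP and 0.706% to 13.0% in total RNA. The ratio of miR-790-5p to miR-791-3p was 5.92 to 19.9 in the IP and 32.0 to 661 in total RNA. The RPM values of the 3 arms thus never overlapped within a library. The opposite arms were rare, with miR-228-3p at 1.37 to 24.6 RPM in the IP and 0.812 to 10.5 RPM in total RNA.

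**Figure D1:**
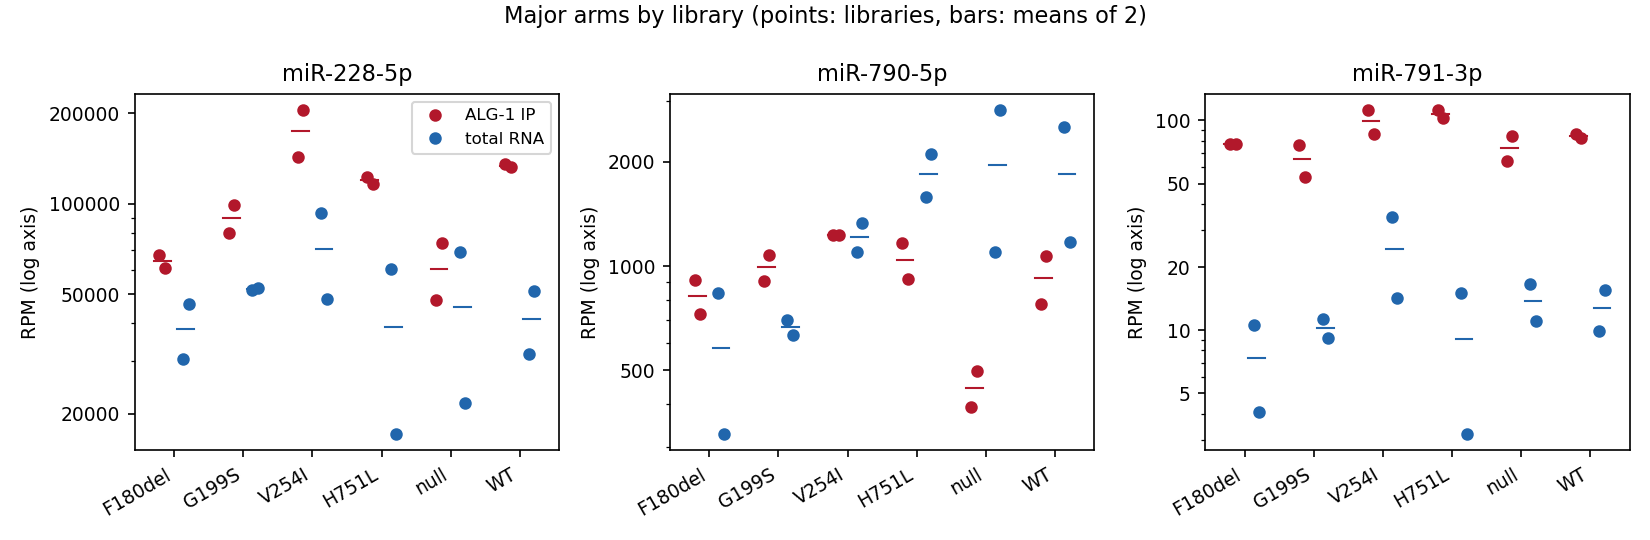
Level of the major arm of each hairpin (RPM, log axis) in every library, with ALG-1 IP in red and total RNA in blue for each genotype and a bar at the mean of 2 libraries. In every genotype both miR-791-3p points of the IP lie above both points of total RNA, while the miR-790-5p points of the IP lie below those of total RNA in H751L, null and WT and above them in G199S.

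The first comparison asked how the arms recovered in the IP differed between each alg-1 genotype and WT. For null it sets recovery without ALG-1 against the WT IP. Levels in the IP set each genotype against WT in edgeR's quasi-likelihood test over all 12 IP libraries, with Benjamini-Hochberg adjusted p-values over 269 miRNAs and a threshold of 0.05. In F180del 2 of the 6 arms passed, where 32.3% of all miRNAs did: miR-228-5p fell and the passenger arm miR-790-3p rose. In G199S 1 arm, again miR-790-3p, rose, where 25.3% of miRNAs passed. No arm passed in V254I, where 0% of miRNAs did, or in H751L, where 2.23% did; at an unadjusted p under 0.05 edgeR had 0 arms in V254I and 1 in H751L, and DESeq2 called 0 in both. In null 2 arms passed, miR-228-3p upwards and miR-791-5p downwards, where 41.3% of miRNAs passed. miR-790-3p entered this fit through F180del and G199S, where it is high, so its calls there are a description and the counts above include them. Even with it counted, the share of the 6 arms that passed lay near or below the background in each genotype.

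miR-228-5p had 67627 and 61282 RPM in the F180del IP, against 135926 and 132381 RPM in the WT IP. The groups do not overlap, and the pairs of libraries lie close together. The log2 change was -1.73 ± 0.34 (SE), with an edgeR adjusted p of 0.0033, beside a median of 0.29 over all miRNAs tested. RPM values rest on library totals and the fit on TMM factors, which scale each library by the bulk of its miRNAs; with library totals the log2 change was -1.06 (edgeR adjusted p = 0.0065). In the G199S IP the arm had 80037 and 98797 RPM, also below both WT libraries, with a log2 difference of -0.89 ± 0.34 that did not pass (edgeR adjusted p = 0.0825). It passed with RLE factors (edgeR adjusted p = 0.0257), with no filter (0.0325), with only the groups compared (0.0232) and in DESeq2 (0.0292). In the null IP it had 47790 and 73926 RPM, again below WT and not past the threshold (log2 difference -0.84, edgeR adjusted p = 0.0657). The median over all miRNAs tested in null was -0.77, so the arm lay near the shift of the typical miRNA. It passed with library totals (edgeR adjusted p = 0.0051) and with no filter (0.0205). Without null library 1 the fitted log2 value was 0.068, although the RPM of the remaining null library lay below both WT libraries. V254I stood on the other side, with 143186 and 205860 RPM, both above the WT libraries, and H751L had 123293 and 116660 RPM, both slightly below them; neither passed. Among the 4 disease alleles alone miR-228-5p differed in the IP by an F-test (edgeR adjusted p = 0.00285), where 37.2% of miRNAs did.

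miR-790-3p, the rare passenger arm of mir-790, had 4.57 and 3.21 RPM in the F180del IP, from 18 and 28 reads, against 0.169 and 0.161 RPM in the WT IP, from 2 reads in each library. In the G199S IP it had 24.4 and 28.5 RPM, from 478 reads in all. Both alleles lay above both WT libraries with no overlap. From the reads summed over the group, the ratio to WT was 22.0 in F180del (exact 95% interval 8.05 to 84.3) and 157.0 in G199S (61.1 to 580.0), where the intervals cover counting error only. The fitted log2 changes were 3.79 ± 0.83 in F180del (edgeR adjusted p = 0.00663) and 6.93 ± 0.89 in G199S (edgeR adjusted p = 0.000271). Since the arm entered the fit through these 2 alleles, it had to differ there to be tested, and these p-values are given as a description. With no filter the values were 3.84 (edgeR adjusted p = 0.0045) and 6.98 (5.29e-06). The call in F180del ended when either WT library was left out (edgeR adjusted p = 0.0588 without WT library 1 and 0.0625 without library 2), while that in G199S held without any 1 of the 4 libraries compared.

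The other alleles were low in this arm. V254I had 0.314 and 0.412 RPM in the IP and H751L had 1.30 and 0.426 RPM, from 4 and 5 reads and from 18 and 5 reads. Their ratios to WT were 2.19 (exact 95% interval 0.612 to 9.75) and 5.45 (1.86 to 21.7), and neither arm passed the test (H751L edgeR adjusted p = 0.160). Both null IP libraries had 0 reads of miR-790-3p, so against 3 reads over the null group the arm was at least 17.6-fold higher in F180del and at least 126.0-fold higher in G199S. The 4 disease alleles differed from one another in miR-790-3p in the IP (F-test, edgeR adjusted p = 0.000413), where 37.2% of miRNAs did. As the arm entered the fit through F180del and G199S, this p-value too is a description.

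In G199S the sum of a set of miRNAs of other cells was also high. The summed level of 8 miRNAs of the miR-35 family, which mark embryos and the germline, was 56723 to 62651 RPM in the G199S IP and 8448 to 8629 RPM in the F180del IP, against 4415 to 5395 RPM in the WT IP. In total RNA the sum was 95430 to 121373 RPM in G199S and 13619 to 19172 RPM in F180del, against 15532 to 19719 RPM in WT. By Pearson's r over the 12 IP libraries, the miRNAs that ran most like miR-790-3p were miR-39-3p, miR-39-5p and miR-35-3p, all arms of hairpins of this family; they are named after their values were seen, and no r is given because the G199S libraries stand apart. By this sum the G199S libraries lie far above the others in both fractions, and the part of this difference in the miR-790-3p result was not tested.

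**Figure D2:**
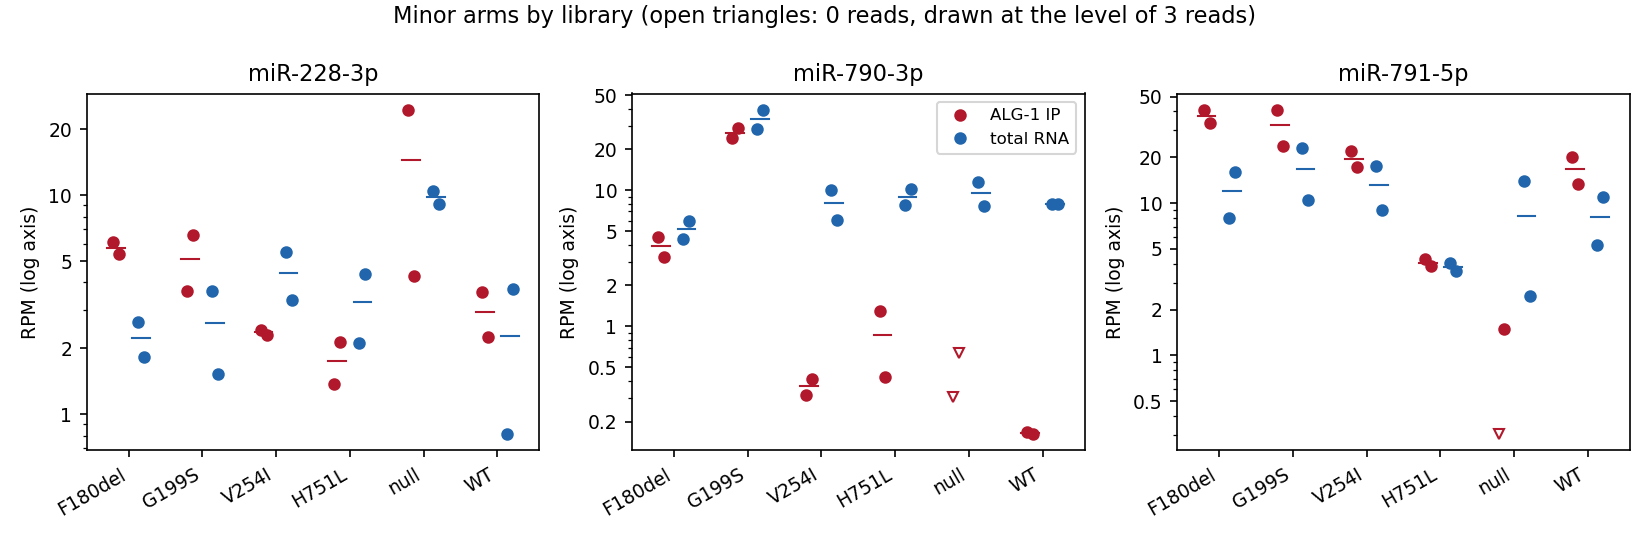
Level of the arm of each hairpin with fewer reads over all total libraries (RPM, log axis) in every library, with ALG-1 IP in red and total RNA in blue, a bar at the mean of 2 libraries where both had reads, and open triangles for libraries with 0 reads drawn at the level of 3 reads. miR-790-3p in the IP separates G199S (24.4 and 28.5 RPM) and F180del (4.57 and 3.21 RPM) from WT (0.169 and 0.161 RPM).

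The arms of mir-791 differed in null. miR-791-5p, its rarer arm over the total libraries, had 0 and 1.5 RPM in the null IP, from 0 and 7 reads, against 20.1 and 13.3 RPM in the WT IP. The groups do not overlap, and the ratio of summed reads was 0.0289 (exact 95% interval 0.0116 to 0.0602, counting error only). The arm fell in edgeR with a log2 change of -4.35 ± 1.15 (adjusted p = 0.0129), and without WT library 1 the adjusted p was 0.0516. Without null library 1 the change was -2.52, and without null library 2 the group had 0 reads. Neither call in the null IP held when only the null and WT libraries were fitted (edgeR adjusted p = 0.225 for miR-791-5p and 0.201 for miR-228-3p). Its partner miR-791-3p had 63.8 and 84.0 RPM in the null IP, against 86.0 and 82.1 RPM in the WT IP, and these overlap. The log2 difference of miR-791-3p was 0.10 ± 0.43.

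In the disease alleles miR-791-5p had 40.9 and 33.4 RPM in the F180del IP and 41.0 and 23.7 RPM in the G199S IP, all above the WT values. It had 22.0 and 17.2 RPM in V254I, which overlap WT, and 4.26 and 3.83 RPM in H751L, both below WT. None of these 4 differences passed. miR-791-3p also stayed short of the threshold in all 5 genotypes, with F180del at 77.4 and 76.9 RPM, G199S at 76.4 and 53.9 RPM, V254I at 112 and 85.9 RPM and H751L at 112 and 103 RPM. Its IP level spanned 53.9 to 112 RPM over all 12 libraries, the narrowest relative range of the 6 arms there.

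miR-228-3p, the passenger arm of mir-228, had 24.6 and 4.28 RPM in the null IP, from 243 and 20 reads, against 3.63 and 2.26 RPM in the WT IP. Both null libraries lie above WT, but they differ from each other more than the lower one differs from WT. The log2 change was 2.45 ± 0.78 (edgeR adjusted p = 0.0303), and the call ended without null library 1 (1.49, edgeR adjusted p = 0.0832), without WT library 1 (adjusted p = 0.0999) and without WT library 2 (adjusted p = 0.154). miR-790-5p, the major arm of mir-790, passed in no genotype in the IP. It had 391 and 497 RPM in the null IP and 914 and 727 RPM in the F180del IP, against 778 and 1072 RPM in the WT IP. The null libraries lie below WT with no overlap (log2 difference -0.79, edgeR adjusted p = 0.0922), beside a median of -0.77 over all miRNAs tested in null. Without null library 1 the fitted difference was 0.0081, although the remaining null library, at 497 RPM, lay below both WT libraries.

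The same genotypes were then compared in total RNA, where the values are shares of the miRNA reads of the lysate. None of the 6 arms passed in any genotype against WT, where 15.5% of all 303 miRNAs passed in F180del, 11.9% in G199S, 0% in V254I, 1.98% in H751L and 11.9% in null. At an unadjusted p under 0.05 there were 3 differences over the 5 genotypes, all of mir-790 arms. DESeq2 called 1 arm in F180del, 2 in G199S and 0 in V254I, H751L and null.

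miR-790-5p came nearest to the threshold. It had 834 and 326 RPM in F180del and 699 and 632.5 RPM in G199S, against 2529 and 1175 RPM in WT. Both alleles lie below both WT libraries, which differ from each other by 2.15-fold. The log2 differences were -2.06 ± 0.68 in F180del (edgeR adjusted p = 0.0516) and -1.65 ± 0.67 in G199S (edgeR adjusted p = 0.116). The F180del difference passed with RLE factors (edgeR adjusted p = 0.0459), with no filter (0.0377), with all precursor rows (0.0441) and in DESeq2 (0.0120), but it was -1.07 without F180del library 2 and -1.51 without WT library 1. That in G199S passed in DESeq2 (0.0253) and with only the groups compared (0.0254). V254I with 1101 and 1330 RPM, H751L with 1588 and 2109 RPM and null with 1101 and 2833 RPM overlapped WT.

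Its passenger miR-790-3p had 28.3 and 39.2 RPM in G199S total RNA, against 7.91 and 7.99 RPM in WT total RNA. The ratio of summed reads was 4.3 (exact 95% interval 3.55 to 5.24, counting error only), and the log2 difference of 1.89 ± 0.68 did not pass (edgeR adjusted p = 0.0761). The other genotypes lay between 4.38 and 11.6 RPM. Among the 4 disease alleles the arm differed in total RNA (F-test, edgeR adjusted p = 0.0233, where 17.2% of miRNAs did), and that call ended in each of 8 fits without 1 library.

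miR-228-5p varied strongly between the total libraries of a group. It had 60554 and 17064 RPM in H751L, 69060 and 21738 RPM in null and 92939 and 48312 RPM in V254I, against 31501 and 51414 RPM in WT. F180del had 30393 and 46192 RPM, which overlap WT, and G199S had 51655 and 52316 RPM, just above WT. miR-791-3p had between 3.19 and 34.5 RPM and overlapped WT in all 5 genotypes. In total RNA no value of miR-228-5p or miR-791-3p could be set apart from WT at this spread.

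**Figure D3:**
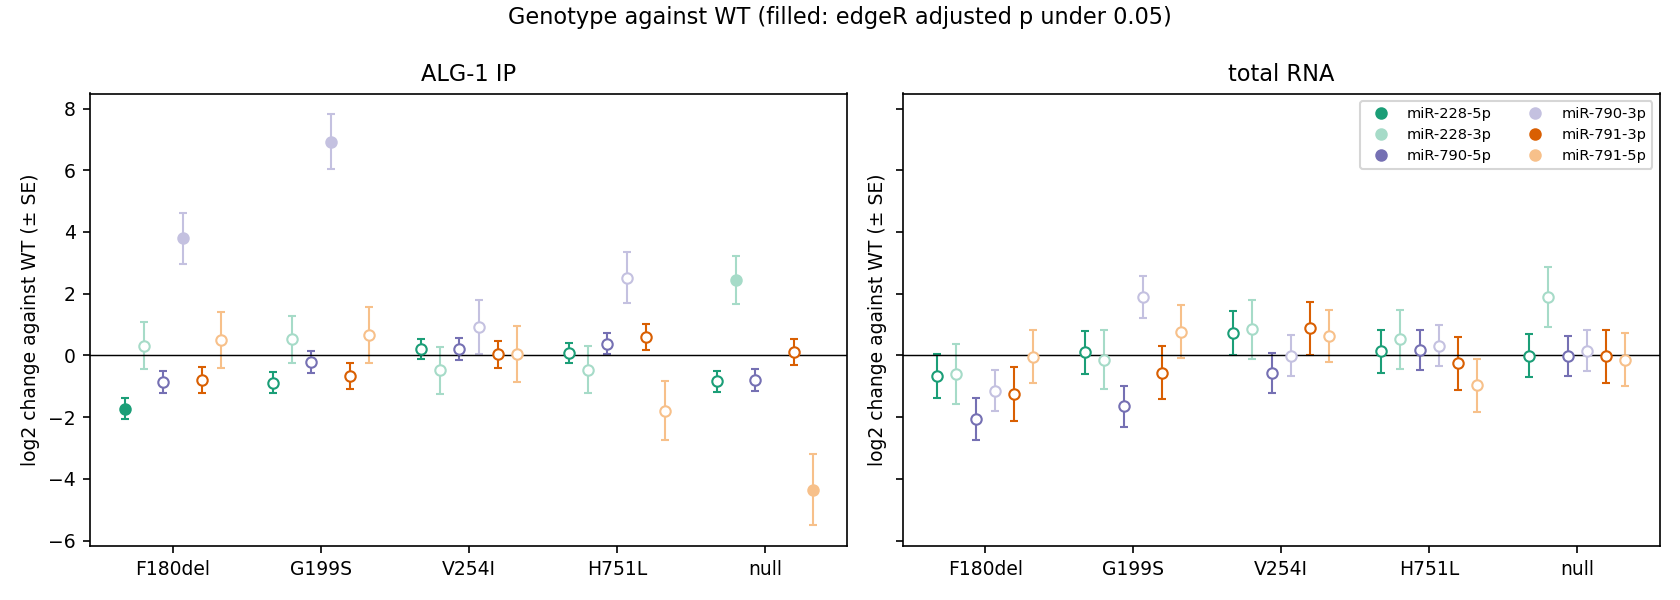
Fitted log2 change of the 6 arms against WT in the ALG-1 IP (left) and in total RNA (right), with 1 point per arm and genotype, bars of 1 SE and filled points for an edgeR adjusted p under 0.05. miR-790-3p in the null IP is not drawn because both libraries had 0 reads; the filled points are miR-228-5p and miR-790-3p in F180del, miR-790-3p in G199S, and miR-228-3p and miR-791-5p in null, all in the IP.

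A further comparison set the IP against total RNA of the same genotype, in a fit of all 24 libraries and 315 miRNAs. The share of all miRNAs past the threshold was 8.89% in F180del, 7.94% in G199S, 13.7% in V254I, 30.8% in H751L, 35.6% in null and 21.9% in WT. Of the 6 arms 1 passed in F180del, 1 in G199S, 2 in V254I, 3 in H751L, 2 in null and 3 in WT.

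miR-791-3p passed in all 6 genotypes, always higher in the IP. In WT it had 86.0 and 82.1 RPM in the IP, against 9.94 and 15.6 RPM in total RNA, and in H751L it had 112 and 103 RPM in the IP, against 15.1 and 3.19 RPM in total RNA. No IP library overlapped a total library of its genotype. The log2 changes with their edgeR adjusted p-values were 3.08 ± 0.75 in F180del (0.0132), 2.90 ± 0.74 in G199S (0.0171), 2.33 ± 0.72 in V254I (0.0379), 4.57 ± 0.79 in H751L (0.000298), 3.48 ± 0.76 in null (0.0014) and 3.24 ± 0.75 in WT (0.00439). The IP of the null allele was thus also richer in this arm than its total RNA, and the log2 change in null minus that in WT was 0.24 ± 0.97 (edgeR adjusted p = 1.00). Leaving out a library ended some of these calls: that in G199S and that in V254I were lost without any 1 of their 4 libraries (edgeR adjusted p 0.0757 to 0.227 in G199S and 0.0723 to 0.279 in V254I). That in F180del was lost without either IP library or total library 2 (0.0561 to 0.144), and that in WT without total library 1 (0.0687). Those in H751L and null held, at 3.70 to 6.25 in H751L and 2.5 to 3.74 in null. The null call ended when only the null libraries were fitted (0.132), and the V254I call with library totals (0.0538).

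miR-228-5p was higher in the IP in H751L and WT. In WT it had 135926 and 132381 RPM in the IP, against 31501 and 51414 RPM in total RNA (log2 change 2.22 ± 0.65, edgeR adjusted p = 0.0172). In H751L the change was 2.65 ± 0.66 (edgeR adjusted p = 0.00493), and it did not pass without H751L total library 2 (0.0861). The WT call ended without WT total library 1 (0.169) or WT IP library 2 (0.0516). The IP libraries of F180del, G199S and V254I also lay above their total libraries without passing. Those of null overlapped, with a log2 difference of 1.53 ± 0.63 that did not pass (edgeR adjusted p = 0.0638) and was 0.42 with library totals. The IP to total ratio of miR-228-5p passed in no genotype against WT, with a log2 difference of -1.82 ± 0.88 in F180del (edgeR adjusted p = 0.410). In null that difference was -0.69 ± 0.88 (edgeR adjusted p = 0.764), so the ratio in null was not set apart from that in WT.

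miR-790-3p went the other way in WT, where it had 0.169 and 0.161 RPM in the IP, against 7.91 and 7.99 RPM in total RNA. The IP held 0.0207 of the level of total RNA (exact 95% interval 0.00556 to 0.0543). It was lower in the IP of WT with a log2 change of -4.95 ± 0.84 (edgeR adjusted p = 0.000488), in V254I by -4.12 ± 0.78 (adjusted p = 0.00309) and in H751L by -2.26 ± 0.70 (adjusted p = 0.0189). In null the IP had 0 reads against 136 in total RNA, at least 47.4-fold lower, and it passed there too (edgeR adjusted p = 8.14e-05). The calls in V254I ended without either IP library (0.104 and 0.0735), and those in H751L without IP library 2 (0.205) or total library 2 (0.0901). The H751L call also ended with no filter (0.102), and the null call when only the null libraries were fitted (0.0855).

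In F180del and G199S miR-790-3p did not pass as lower in the IP. F180del had 4.57 and 3.21 RPM in the IP, against 4.38 and 6.0 RPM in total RNA, and G199S had 24.4 and 28.5 RPM in the IP, against 28.3 and 39.2 RPM in total RNA. In both alleles the fractions overlap, and the IP held 0.692 (exact 95% interval 0.475 to 0.997) and 0.758 (0.671 to 0.856) of the level in total RNA. The test of the difference itself, the IP to total ratio of the allele against that of WT, gave a log2 value of 4.18 ± 1.05 in F180del (edgeR adjusted p = 0.0456, where 2.22% of miRNAs passed) and 4.85 ± 1.04 in G199S (edgeR adjusted p = 0.0272, where 0.952% did). H751L did not pass (2.69 ± 1.05, edgeR adjusted p = 0.448) and neither did V254I or null, where 0%, 0% and 1.27% of miRNAs passed; at an unadjusted p under 0.05 there were 0 arms in V254I, 1 in H751L and 1 in null, and DESeq2 called 0 in V254I, 0 in H751L and 1 in null. Each of the F180del and G199S calls ended when any 1 of the 8 libraries involved was left out, with log2 values of 4.01 to 4.58 (edgeR adjusted p 0.0686 to 0.239) in F180del and 4.38 to 5.04 (0.0692 to 0.332) in G199S. With no filter on low counts the F180del difference did not pass (0.0742).

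**Figure D4:**
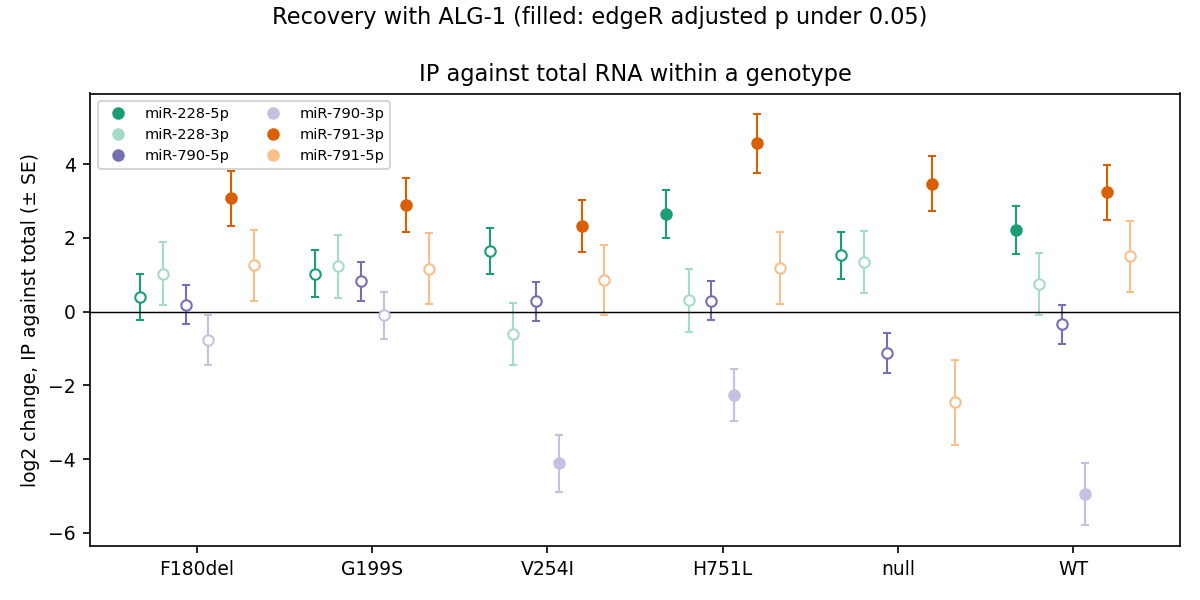
Fitted log2 change of the IP against total RNA within each genotype, with 1 point per arm, bars of 1 SE and filled points for an edgeR adjusted p under 0.05. miR-791-3p is filled and positive in all 6 genotypes, and miR-790-3p is filled and negative in V254I, H751L and WT; its null point is left out because the null IP had 0 reads.

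The arms of a hairpin were then set against each other, which removes the level of the hairpin itself. Minor to major arm ratios were tested with limma over the 83 hairpins in the IP and the 99 in total RNA that had enough minor arm reads. For mir-790 the 3p arm was 0.50% and 0.442% of the 5p arm in the F180del IP and 2.69% and 2.66% in the G199S IP, against 0.0217% and 0.0150% in the WT IP. The log2 changes of the ratio were 4.41 ± 0.58 in F180del (limma adjusted p = 0.000372, where 48.2% of hairpins passed) and 6.89 ± 0.58 in G199S (limma adjusted p = 6.45e-05, where 37.3% did). The hairpin entered the IP test through G199S, which held 478 of its 560 miR-790-3p reads; the other 10 libraries averaged 8.2 reads, under the minimum mean of 10, so these p-values too are a description. The median log2 change of the ratio over all hairpins tested was 2.26 in F180del and 1.66 in G199S. V254I had 0.0255% and 0.0336%, H751L 0.112% and 0.0465%, and neither passed, where 0% and 1.2% of hairpins did. Null had 0 of 6190 mir-790 reads on the 3p arm, which allows a share of up to 0.0485%.

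In total RNA the 3p arm was 4.05% and 6.20% of the 5p arm in G199S, against 0.313% and 0.680% in WT. The log2 change was 3.43 ± 0.89 (limma adjusted p = 0.0348, where 13.1% of hairpins passed). The call ended without G199S library 1 (0.109), G199S library 2 (0.171) or WT library 1 (0.189), and with no minimum count (0.0725). F180del had 0.525% and 1.84%, which overlap WT and did not pass, where 12.1% of hairpins did. None of the 3 hairpins passed in total RNA of V254I, H751L or null, where 0%, 5.05% and 13.1% of all hairpins passed, and none had an unadjusted limma p under 0.05.

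The arms of mir-791 were more even than those of mir-790. In total RNA miR-791-5p had 394.7% of the reads of miR-791-3p in F180del library 2, 204% and 114% in G199S and 111% in H751L library 2, and was the rarer arm in the other 8 libraries, with 53.1% and 70.5% in WT. In the IP it was the rarer arm in all 12 libraries. It had 52.8% and 43.4% in F180del, 53.7% and 43.9% in G199S, 19.7% and 20.1% in V254I and 3.79% and 3.74% in H751L, against 23.4% and 16.2% in WT. The null IP had 0% and 1.79%, a log2 change of the ratio of -5.65 ± 1.25 (limma adjusted p = 0.0238, where 20.5% of hairpins passed), which ended without WT library 1 (0.103) or WT library 2 (0.0821) and when only the null and WT libraries were fitted (0.272). Without null library 1 it was -3.35. For mir-228 no genotype passed, null being nearest with a log2 difference of 3.01 ± 0.96 (limma adjusted p = 0.0530).

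**Figure D5:**
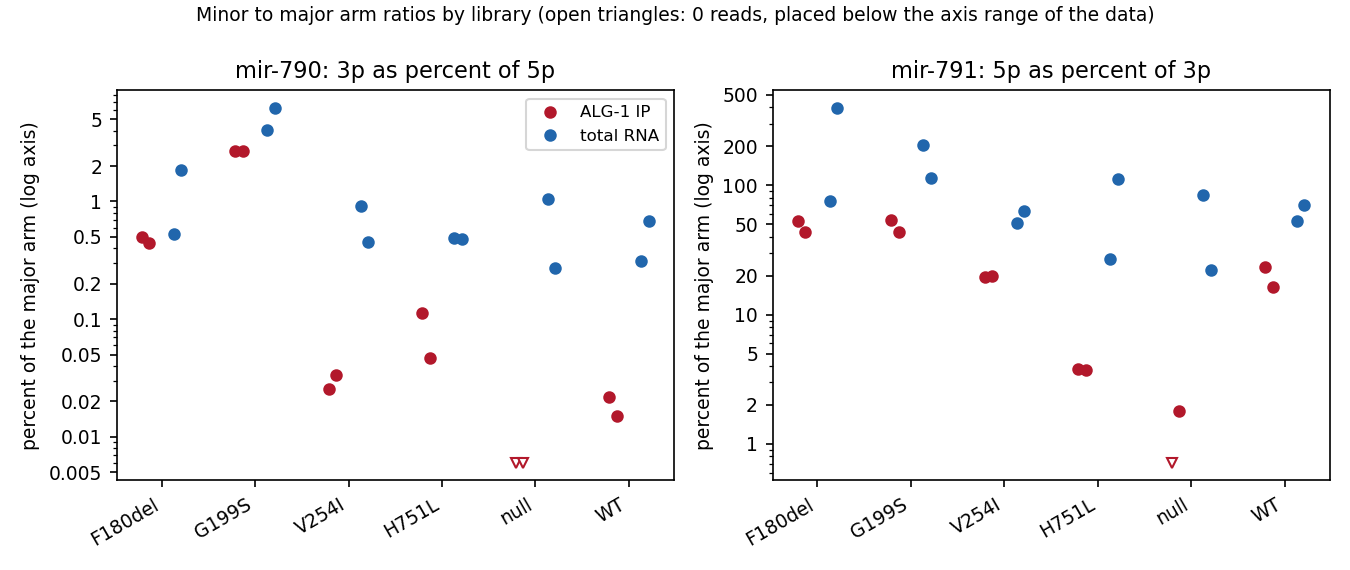
Minor arm as a percentage of the major arm of the same hairpin (log axis) in every library for mir-790 (left) and mir-791 (right), with ALG-1 IP in red, total RNA in blue and open triangles for libraries with 0 reads of the minor arm, placed below the other points. For mir-790 the G199S IP libraries (2.69% and 2.66%) and the F180del IP libraries (0.50% and 0.442%) lie above the WT IP libraries (0.0217% and 0.0150%).

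The null IP was also set against the disease alleles as the precipitation from animals with the null allele. The median of all miRNAs stood 0.63 to 1.40 above null on the log2 scale in this test. In F180del 4 of the 6 arms passed, in G199S 2, in V254I 5 and in H751L 4, where 50.6%, 44.2%, 46.8% and 39.8% of all miRNAs passed. miR-790-3p, with 0 reads in null, passed as higher in all 4 alleles, but the V254I call rests on 9 reads and ended with no filter (edgeR adjusted p = 0.0708) and in DESeq2 (0.0762). The arm entered this fit through F180del and G199S, where it is high. Its calls are thus a description, and the counts above include them. miR-791-5p was higher in F180del (4.85 ± 1.17, edgeR adjusted p = 0.0063), G199S (5.01 ± 1.17, adjusted p = 0.0069) and V254I (4.39 ± 1.15, adjusted p = 0.0113). The null libraries had 0 and 7 reads of it, and without null library 1 the log2 values were 3.28, 3.23 and 2.64. The passenger miR-228-3p was lower in F180del (-2.13 ± 0.78, edgeR adjusted p = 0.0413), V254I (-2.93 ± 0.80, adjusted p = 0.0138) and H751L (-2.91 ± 0.80, adjusted p = 0.0162). The F180del call ended with library totals (0.158) and with no filter (0.0521), and was -0.93 without null library 1. miR-790-5p was higher in V254I (1.00 ± 0.35, edgeR adjusted p = 0.0414) and H751L (1.18 ± 0.36, adjusted p = 0.0253). Without null library 1 these differences were 0.26 and 0.47, and the V254I call also ended with no filter (0.0723) and all precursor rows (0.0594). miR-228-5p was higher in V254I (1.05 ± 0.34, edgeR adjusted p = 0.0290) and H751L (0.92 ± 0.34, adjusted p = 0.0491), and lower in F180del (-0.89 ± 0.34, adjusted p = 0.0476). Without null library 1 these values were 0.22, 0.11 and -1.545. The median over all miRNAs tested was 0.99 in V254I, so miR-228-5p and miR-790-5p lay near the typical miRNA there, and it was 0.63 in H751L. The H751L call ended with RLE factors (edgeR adjusted p = 0.0928), in DESeq2 (0.139) and with all precursor rows (0.0770), and the F180del call with all precursor rows (0.0535). With library totals in place of TMM factors the F180del value turned to 0.083. No arm passed in any of the 4 alleles when only the groups compared were fitted. Leaving out 1 library gave 2 to 4 arms in F180del and in G199S, 0 to 5 in V254I (0 without V254I library 1) and 1 to 5 in H751L (1 without H751L library 1 or null library 1). miR-791-3p passed in none.

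3 other miRNAs of neurons were described beside the members: lsy-6-3p of the ASEL gustatory neuron, miR-124-3p of ciliated sensory neurons and miR-234-3p of neurons. In the IP 1 of the 3 was lower in F180del against WT, miR-234-3p (-2.06 ± 0.28, edgeR adjusted p = 0.000281), 1 was lower in null, miR-124-3p (-1.65 ± 0.59, adjusted p = 0.0440), and none passed in G199S, V254I or H751L, where 1, 0 and 0 of the 3 had an unadjusted p under 0.05. Of all miRNAs in the IP 32.3% passed in F180del and 41.3% in null, so these counts lie near the background. In total RNA miR-234-3p was lower in F180del (-2.78 ± 0.71, edgeR adjusted p = 0.0211, where 15.5% of all miRNAs passed) and no other of the 15 list differences passed, with an unadjusted p under 0.05 for 1 more in F180del and 1 in G199S. The median log2 difference of the list in the IP was -0.97 in F180del and -1.65 in null, beside 0.29 and -0.77 over all miRNAs tested.

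The miRNAs whose level ran most like each major arm were named by Pearson's r of log2(RPM + 1) over the 12 libraries of a fraction, which share genotype, depth and composition. In the IP miR-228-5p ran most like miR-244-5p (0.929), miR-50-5p (0.889) and miR-356b-3p (0.873), and miR-790-5p most like miR-249-3p (0.928), miR-76-3p (0.899) and miR-124-3p (0.887). Of these miR-244-5p was taken as a mark of seam and epidermis, and the cell type behind the miR-228-5p reads was not tested. miR-791-3p had weaker likeness in the IP, with miR-787-3p (0.732), miR-797-5p (0.71) and miR-244-5p (0.689). In total RNA miR-228-5p ran most like miR-248 (0.935), miR-55-3p (0.924) and miR-1022-5p (0.914), and miR-790-5p most like miR-44-3p (0.964), miR-45-3p (0.964) and miR-234-3p (0.951), of which miR-44-3p and miR-45-3p can share reads. miR-791-3p ran most like miR-248 (0.767), miR-793 (0.76) and miR-230-5p (0.74). The members were less alike than these. Between miR-228-5p and its neighbour miR-790-5p r was 0.768 in the IP and -0.462 in total RNA. Between miR-228-5p and miR-791-3p it was 0.518 in the IP and 0.707 in total RNA, the latter near the 0.74 of miR-230-5p. Between miR-790-5p and miR-791-3p it was 0.39 in the IP and 0.144 in total RNA.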

How the data were processed

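The deposited table holds counts, whole numbers of reads for each mature arm in each of the 24 libraries. A sheet of RPM values, in which the authors scaled each library to 1000000 miRNA reads, matched the RPM computed from these counts to within 1 RPM in 100.0% of cells. Bowtie 1.2.2, cutadapt, FastQC 0.11.8 and DESeq2 stand in the submitters' processing notes without their roles. The build the authors used, and how they treated reads that fit more than one miRNA, is not given in the sources used here. Per-sample columns that match no label (48) were not used. The 13 rows repeated under another precursor were removed by keeping the row with most reads, and none was a member.

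Counts were tested with edgeR 4.0.16 in R 4.3.3 (filterByExpr, TMM factors, quasi-likelihood F-test on group means), fitted over 12 IP libraries, 12 total libraries or all 24, with Benjamini-Hochberg adjustment over all miRNAs of a fit and a threshold of 0.05. Arm ratios used limma 3.58.1 (trend) on log2 of counts plus 0.5, for hairpins with a mean minor arm count of at least 10. The code was tested on simulated data. There, with G199S set against WT, edgeR recovered 30% of true log2 changes of size 2 in total RNA and 40% in the IP. A difference that did not pass is therefore not shown to be absent. With 2 libraries against 2 an exact permutation test cannot go below 0.333, so none is given. Against TMM factors, library totals moved all log2 changes in the IP by 0.67 in F180del, 0.30 in G199S, 0.19 in V254I, -0.24 in H751L and -0.25 in null, and in total RNA by 0.51, 0.20, 0.00, -0.16 and 0.13. Intervals and floors cover counting error only. Named were all member arms, the 3 miRNAs most like each major arm among those with a mean of at least 10 RPM, and the neuron list. Members and lists were chosen with earlier results of these data known. Alternatives were other scaling, no filter, DESeq2 1.42.0, only the groups compared, all precursor rows, a replicate block and leaving out each library; leaving out libraries in the test among alleles was added after the data were seen.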

Additional observations from a re-analysis of the deposited data

Results flagged for a closer look

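The rare arm miR-790-3p was flagged because its IP to total ratio differed from that of WT in an edgeR interaction test over all 24 libraries. The log2 difference was 4.18 in F180del (adjusted p = 0.0456) and 4.85 in G199S (adjusted p = 0.0272). In both alleles each IP library lay above both WT IP libraries, which had 2 reads each, so the WT side of both ratios rests on 4 reads. Both calls ended on leaving out any 1 library involved.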

How the results depend on the processing

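Of the 38 arm and ratio results past the threshold, other settings gave 252 values, of which 215 kept direction and call, 36 lost the call and 1 turned; leaving out 1 library gave 160 values, of which 88 kept the call, 72 lost it and 0 turned. The cause was not tested except where fewer samples or another set of miRNAs enter the fit. The value that turned was miR-228-5p in the IP of F180del against null, 0.083 with library totals. In the null IP against WT, leaving out 1 library gave -1.41 to 0.068 for miR-228-5p and -1.18 to 0.0081 for miR-790-5p, both turned without null library 1. Counts of arms past the threshold that moved by more than 1.5 times, or to or from 0, were as follows. In total RNA against WT, F180del had 1 with RLE factors, no filter, DESeq2, all precursor rows or the replicate block, and G199S 1 with library totals and 2 with DESeq2 or only the groups compared. In the IP against WT, F180del had 4 with DESeq2 or only the groups compared, G199S 2 with RLE factors, no filter, only the groups compared or the block and 3 with DESeq2, H751L 1 with only the groups compared, and null 4 with library totals and 0 with only the groups compared. For the IP against total RNA, G199S had 2 with only the groups compared, V254I 1 with library totals or the block, and null 4 with RLE factors, library totals or DESeq2 and 0 with only the groups compared. For the ratio against WT, F180del had 0 with no filter and null 1 with DESeq2. Against the null IP all 4 alleles had 0 with only the groups compared, G199S 4 with DESeq2 and V254I 3 with no filter. Of the hairpins tested by arm ratio, G199S in total RNA had 0 with no minimum count, and in the IP F180del had 2 and H751L 1 with only the genotypes compared, and null 2 with a pseudocount of 1 and 0 with only the genotypes compared. The highest r was 0.976 for miR-790-5p in total RNA and 0.869 for miR-791-3p in the IP with TMM-scaled CPM, and 0.899 for miR-790-5p in the IP with a minimum mean of 100 RPM. Leaving out 1 library gave counts of 1 to 2 (F180del) and 0 to 4 (null) in the IP against WT, of 0 to 1 (F180del), 0 (G199S), 0 to 1 (V254I), 1 to 3 (H751L), 2 to 4 (null) and 1 to 3 (WT) for the IP against total RNA, of 0 (F180del, G199S) and 0 to 1 (null) for the ratio, of 2 to 4 (F180del, G199S), 0 to 5 (V254I) and 1 to 5 (H751L) against null, of 0 among the alleles in total RNA, and of 0 to 1 (G199S, total RNA) and 0 to 2 (null, IP) for arm ratios. The numbers do not pair the libraries: deviations of libraries with the same number correlated at -0.318 to 0.611 in total RNA and -0.0962 to 0.497 in the IP. With the replicate block, the null IP had 3 arms past the threshold against WT, WT had 2 in the IP against total RNA (miR-228-5p ended at an adjusted p of 0.0859, as did miR-791-3p in V254I), F180del had 3 and V254I 4 against null, and the counts under the block that are not named here kept their value. Depth limits the rare arms: miR-790-3p had 4 reads over the WT IP.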
